A study of Rattus norvegicus with 6 samples.

Results

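The transcripts described here encode 10 proteins of the NF-kB pathway: the subunits Rela, Relb, Nfkb1 and Nfkb2, the IkB inhibitors Nfkbia, Nfkbib and Nfkbie, the related nuclear protein Nfkbiz, the ubiquitin-editing enzyme A20 (Tnfaip3) and the kinase IKK-beta (Ikbkb). They were taken by gene symbol, whatever their values, and all 10 were found among the 17273 genes of the deposited table. RNA was sequenced from cultured nucleus pulposus cells, which make up the soft centre of a spinal disc, of wild-type male Sprague Dawley rats. Lactate libraries (3) came from cells given 10 mM lactate for 8 h, and control libraries (3) from cells left without treatment. All cells were grown in medium with fetal bovine serum. Neither the origin of each library (its own culture or animal, or a shared one) nor the chemical form of the lactate is labelled. The p-values therefore cover the variation among these 6 libraries, part or all of which may be technical.

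NF-kB subunits form dimers that IkB proteins hold in the cytoplasm. Receptors for TNF, interleukin-1 and microbial products activate the IKK kinase, which phosphorylates the IkB proteins and so marks them for destruction, and the freed dimers enter the nucleus. Among the genes that NF-kB switches on are its own brakes, IkB-alpha (Nfkbia) and A20, which makes the pathway a textbook negative feedback loop. In disc cells the pathway is known for driving chemokines and matrix-degrading enzymes in response to inflammatory cytokines.

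Feedback genes of this kind carry kB sites, the DNA elements that NF-kB dimers bind, near their starts. The stretches below come from RefSeq promoter windows of rat assembly GRCr8, which held 8 of the 10 genes (no window was used for Relb or Ikbkb). They show the 3 of the 10 genes that rose after lactate and the precursor subunits Nfkb1 and Nfkb2, which did not rise. All 5 hold the stricter motif described below, and windows without it are not shown. Each stretch runs from 100 bases before to 50 bases after the start used, on the strand of its gene. In none of the genes shown was this start the outermost edge of the gene in RefSeq, whereas for Rela, Nfkbib and Nfkbie it was. Capitals mark matches to the kB consensus.
Nfkbia, chr6:78597023-78597172, minus strand: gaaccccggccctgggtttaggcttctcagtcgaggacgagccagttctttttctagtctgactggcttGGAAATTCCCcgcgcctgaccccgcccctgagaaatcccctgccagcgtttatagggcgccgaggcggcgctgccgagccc
Tnfaip3, chr1:15543930-15544079, minus strand: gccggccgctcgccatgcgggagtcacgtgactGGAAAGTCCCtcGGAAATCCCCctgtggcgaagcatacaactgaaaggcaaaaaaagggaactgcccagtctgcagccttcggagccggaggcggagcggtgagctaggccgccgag
Nfkbiz, chr11:58251621-58251770, plus strand: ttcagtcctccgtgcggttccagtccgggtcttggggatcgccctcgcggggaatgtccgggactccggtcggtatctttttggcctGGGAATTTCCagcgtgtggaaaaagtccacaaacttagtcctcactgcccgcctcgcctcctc
Nfkb1, chr2:226805413-226805562, minus strand: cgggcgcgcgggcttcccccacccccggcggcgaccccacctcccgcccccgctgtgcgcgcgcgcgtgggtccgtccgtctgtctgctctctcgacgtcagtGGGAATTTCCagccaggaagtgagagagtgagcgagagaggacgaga
Nfkb2, chr1:255108274-255108423, plus strand: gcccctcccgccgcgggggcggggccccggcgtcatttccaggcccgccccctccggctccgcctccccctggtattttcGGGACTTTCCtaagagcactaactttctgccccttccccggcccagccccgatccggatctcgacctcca

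The motif GGGA and TTCC with any 2 bases between them, searched on both strands, was found in 5 of the 8 windows of 300 bases and in 1.3% of all 33469 windows. The 5 were Nfkbia, Tnfaip3, Nfkbiz, Nfkb1 and Nfkb2. The looser kB consensus, which contains this motif, was found in 6 of the 8 and in 7.51% of all windows, and added Nfkbie as well as 2 further matches in Tnfaip3. Nfkbiz and Nfkb1, which moved in opposite directions, carry the same letters, GGGAATTTCC. They begin 13 bases before the start in Nfkbiz and 3 bases after it in Nfkb1, and Nfkbia carries them on its other strand, 31 bases before the start. The windows of Rela and Nfkbib hold no match of these letters. A match is a stretch of letters and not a measured binding site.

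Library totals were 30291357 to 35512356 counts in lactate libraries and 33584741 to 38989574 in control libraries, and each library gave 6403 to 9955 counts to the 10 genes together. Most tested genes differed between lactate and control libraries. With the quasi-likelihood test of edgeR and Benjamini-Hochberg adjustment, 9079 of 13747 tested genes (66%) were called at an adjusted p under 0.05. Of all tested genes, 31.4% were higher and 34.6% lower. Levels are given as CPM, the count relative to a library total that was first scaled by a TMM factor, a correction for differences in library make-up. These factors were 0.702 to 0.806 in lactate and 1.33 to 1.36 in control libraries, so that library totals alone gave a median log2 fold change over all tested genes of −0.96, against −0.10 with TMM. Fold changes are thus relative to what most genes did. The deposited FPKM, a level per transcript length and library total, sits lower in lactate libraries for most genes. Macrophage and other leukocyte markers summed to 4.19 to 5.40 CPM in lactate and 9.71 to 10.7 CPM in control libraries. Of 7 of these 15 markers with a row, only Cd14 and Cd68 passed the filter on low counts, and they moved in opposite directions. Cd14, at 2.84 ± 0.466 CPM in lactate and 9.37 ± 0.723 CPM in control libraries (SD, n = 3), made up most of the sum. Among the rest, Csf1r had 36 lactate and 23 control counts, Adgre1 had 0 and 4, and Tyrobp had 0 and 2, in the same order. Endothelial markers summed to 0.680 CPM or less in every library. Of 8 nucleus pulposus and notochord markers tested, 2 were higher (Cd24 and Sox9), 3 lower (Foxa2, Pax1 and Cdh2) and 3 not called (Krt8, Acan and Col2a1). Aggrecan (Acan), the main proteoglycan of the disc, averaged 2290 ± 183 CPM in lactate and 2393 ± 159 CPM in control libraries (SD, n = 3). Col2a1 was scarce, with 55 lactate and 39 control counts over all libraries of a group. The notochord marker Tbxt had 0 lactate and 12 control counts, and Krt19 had 0 and 9, in the same order.

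All 10 genes passed the filter on low counts, and 8 were called, 3 higher and 5 lower, in a comparison in which 66% of all genes were called. The brakes Nfkbia and Tnfaip3 and the co-regulator Nfkbiz were higher after lactate. The kinase Ikbkb, the subunits Nfkb1, Rela and Relb and the inhibitor Nfkbie were lower. Groups did not overlap in 9 of the 10 genes, 4 with lactate above (33.7% of all tested genes) and 5 with lactate below (38.4%), against 72.2% of all tested genes in either direction. In bulk RNA, fewer cells of a type and less RNA per cell cannot be told apart.

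**Figure D1:**
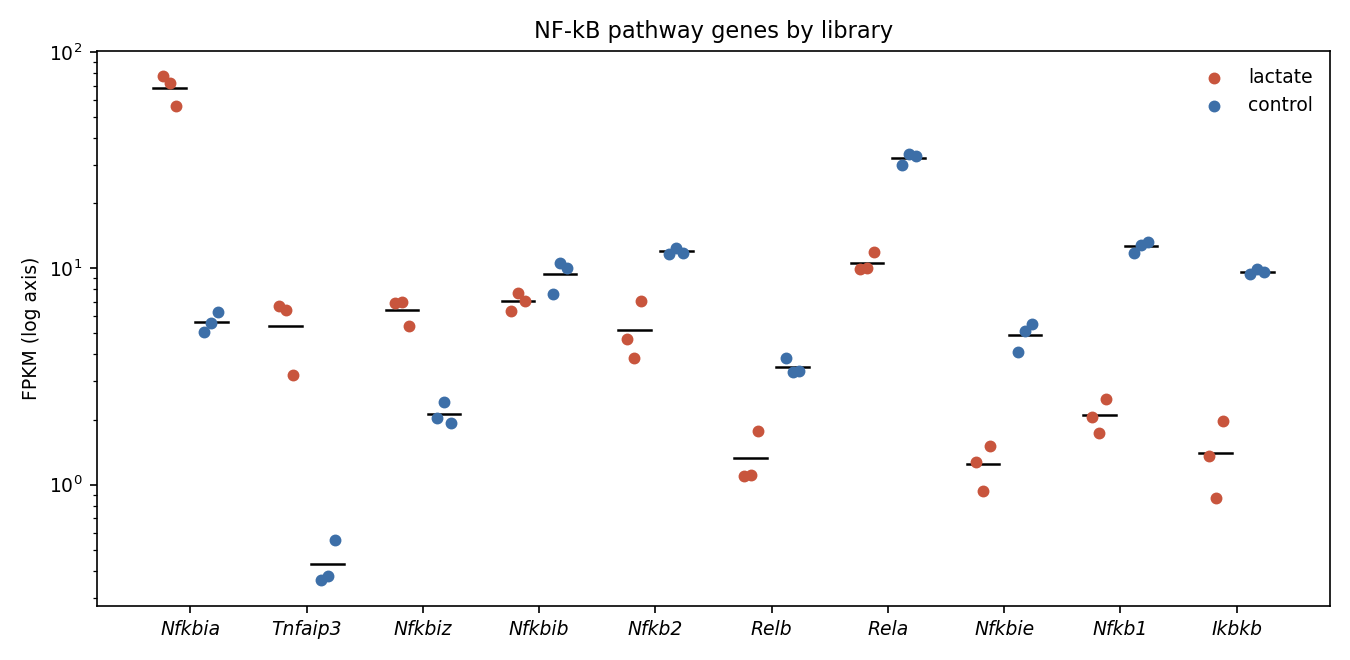
FPKM (log axis) of the 10 genes in each of 3 lactate (red) and 3 control (blue) libraries, with black bars for group means. Nfkbia, Tnfaip3 and Nfkbiz lie higher in all lactate libraries, with Nfkbia at 56.1 to 77.5 FPKM in lactate and 5.06 to 6.30 FPKM in control libraries, and the other 7 have lower means in lactate libraries on this scale.

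Nfkbia encodes IkB-alpha, the inhibitor that is destroyed and remade with each round of NF-kB activity. It stood at 174, 166 and 113 CPM in lactate libraries 1, 2 and 3, against 5.97, 6.80 and 7.49 CPM in control libraries 1, 2 and 3. The lowest lactate library was far above the highest control library. The log2 fold change was 4.48 ± 0.20 (SE; edgeR adjusted p = 1.5e-06), a 22.3-fold rise that exceeded the fold change of 99.4% of tested genes. It was called in all 17 alternative analyses, at 3.38 to 4.68.

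Tnfaip3 encodes A20, which removes and adds ubiquitin chains on signalling proteins and shuts the pathway off. It was nearly silent in control libraries, with 31, 38 and 49 counts, and had 518, 492 and 288 counts in lactate libraries. In CPM these were 23.5, 23.1 and 10.1 in lactate libraries 1, 2 and 3 and 0.678, 0.736 and 1.04 in control libraries 1, 2 and 3. All lactate libraries were above all control libraries, and lactate library 3 was well below the other two. The log2 fold change was 4.52 ± 0.38 (SE; edgeR adjusted p = 1.4e-05), a 23.0-fold rise. Over the alternatives it ranged from 2.12 on log2(FPKM + 1) to 4.86 without lactate replicate 3. The FPKM settings lack TMM scaling and add a pseudocount, which damps low genes. The log2 fold change was 3.33 on log2(FPKM + 0.1) and 3.64 with library totals.

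Nfkbiz encodes IkB-zeta, a nuclear IkB protein that helps NF-kB activate a subset of its targets and is itself an early target gene in mouse and human cells. It had 484, 485 and 442 counts in lactate libraries 1, 2 and 3 and 157, 217 and 153 counts in control libraries 1, 2 and 3. The groups did not overlap. In CPM these averaged 20.1 ± 4.03 in lactate and 3.63 ± 0.508 in control libraries (SD, n = 3). It rose by 2.46 ± 0.20 on the log2 scale (SE; edgeR adjusted p = 1.4e-05), a 5.52-fold rise, smaller than those of Nfkbia and Tnfaip3, and 1.59 with library totals.

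The other cytoplasmic inhibitors did not share the rise of Nfkbia. Nfkbie, which encodes IkB-epsilon, had 2.95, 2.26 and 3.15 CPM in lactate libraries and 4.97, 6.37 and 6.75 CPM in control libraries, with no overlap between groups. It fell by 1.11 ± 0.23 on the log2 scale (SE; edgeR adjusted p = 0.0025). Nfkbib, which encodes IkB-beta, had 12.8, 15.9 and 12.7 CPM in lactate libraries and 8.01, 11.5 and 10.7 CPM in control libraries. Its lactate libraries were all above its control libraries by this scaling, yet the gap was small, and at 0.45 ± 0.18 on the log2 scale (SE; edgeR adjusted p = 0.053) it was not called. With library totals the sign turned, to −0.41 (edgeR adjusted p = 0.064). In RefSeq the span of Nfkbib overlaps that of a predicted gene, and whether reads were shared between them was not tested.

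The largest fall was that of Ikbkb, the kinase subunit that phosphorylates IkB-alpha in the canonical pathway. It had 6.89, 4.56 and 8.98 CPM in lactate libraries 1, 2 and 3, against 25.2, 27.2 and 25.8 CPM in control libraries 1, 2 and 3. The control libraries were tight and the lactate libraries spread, but the groups were far apart. It fell by 1.93 ± 0.23 on the log2 scale (SE; edgeR adjusted p = 0.00010), to 0.262 of the control level. The span of Ikbkb overlaps that of Plat, the tissue plasminogen activator, in RefSeq, and Plat rose by 1.33 ± 0.11, so that the 2 genes moved in opposite directions.

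Nfkb1 encodes p105, which is processed to the DNA-binding subunit p50 and, unprocessed, itself acts as an IkB. It had 11.4, 9.92 and 12.4 CPM in lactate libraries and 34.5, 38.4 and 38.9 CPM in control libraries, with a wide gap between groups. It fell by 1.73 ± 0.13 on the log2 scale (SE; edgeR adjusted p = 1.0e-05), or −1.35 with the trend of fold change on transcript length removed. By transcript length Nfkb1 exceeds 81.2% of tested genes and Ikbkb 77.4%. The median log2 fold change was 0.78 in the shortest and −0.60 in the longest of 10 equal bins of tested genes by length.

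Rela encodes p65, the subunit with the main activating domain of the canonical dimer. It had 34.9, 36.3 and 37.3 CPM in lactate libraries and 55.5, 63.7 and 61.4 CPM in control libraries. No lactate library reached the control range. It fell by 0.73 ± 0.10 on the log2 scale (SE; edgeR adjusted p = 0.00026), to 0.601 of the control level.

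Relb and Nfkb2 are the subunits of the non-canonical pathway. Relb had 2.58, 2.77 and 3.53 CPM in lactate libraries and 4.83, 4.30 and 4.26 CPM in control libraries. The groups did not overlap, but its call at −0.59 ± 0.22 (SE; edgeR adjusted p = 0.040) was lost in 10 of 17 alternatives, 5 of them those that left out lactate replicate 1 or 2 or any control replicate. Nfkb2, whose product p100 is processed to p52 and holds RelB in check, had 20.8, 17.5 and 27.7 CPM in lactate libraries and 27.1, 29.6 and 27.4 CPM in control libraries. Lactate library 3 lay inside the control range and the other lactate libraries below it. At −0.35 ± 0.17 on the log2 scale (SE; edgeR adjusted p = 0.10) it was not called, but without lactate replicate 3 it was −0.52 and called (edgeR adjusted p = 0.0051).

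**Figure D2:**
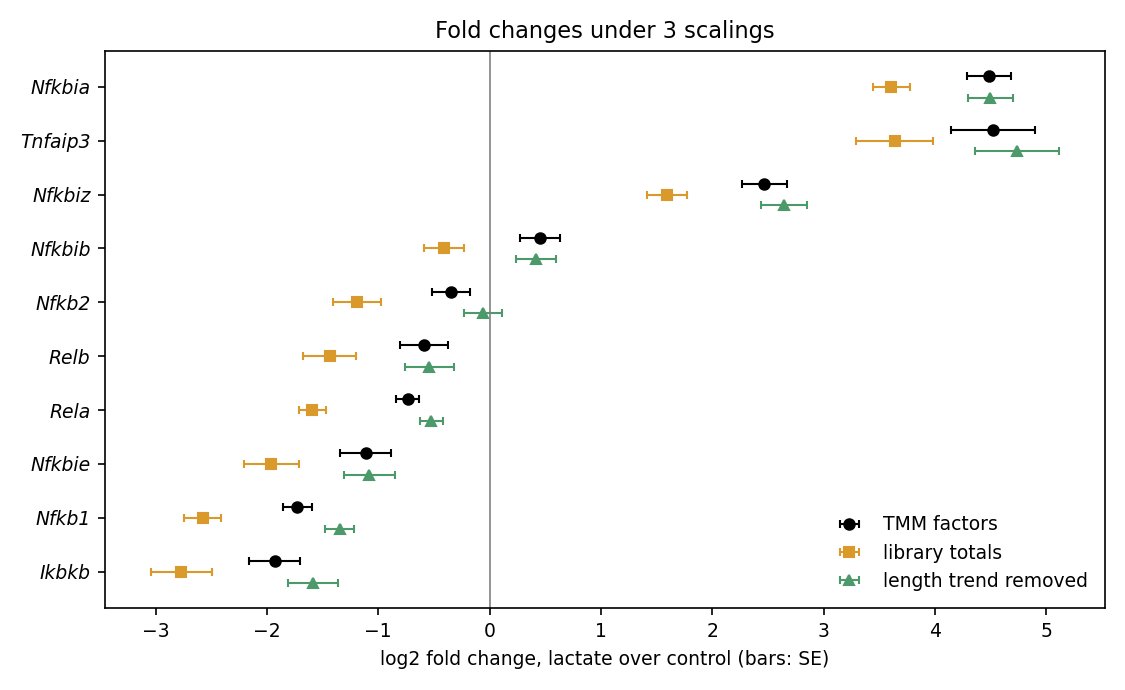
Log2 fold change of each gene, lactate over control, with SE as bars, from edgeR with TMM factors (black circles), with library totals alone (orange squares) and with the trend on transcript length removed (green triangles). Nfkbia, Tnfaip3 and Nfkbiz stay above 0 under all 3 scalings, and only Nfkbib changes side, at 0.45 with TMM and −0.41 with library totals.

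Lactate library 3 was the lactate library nearest to the control mean in all 10 genes by CPM, and in 9 of 10 by FPKM, the exception being Nfkbib. Across all tested genes it was the nearest in 42.3% by CPM and 50.4% by FPKM. Without it, all 10 genes were called, 4 higher and 6 lower, in a comparison that called 9407 of 14038 tested genes. On the first principal component of all genes it stood at −76.0, against −85.9 and −89.3 for lactate libraries 1 and 2 and 80.1 to 85.9 for the control libraries. Its part in the spread of the single genes was otherwise not tested.

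Scaled per transcript length, the order of the genes differed between the groups. In lactate libraries Nfkbia led with 68.5 ± 11.1 FPKM (SD, n = 3), Rela followed with 10.6 ± 1.09 FPKM, and both stood clear of the gene below them. Nfkbib, Nfkbiz, Tnfaip3 and Nfkb2 came next at 7.05 ± 0.666, 6.44 ± 0.870, 5.43 ± 1.93 and 5.21 ± 1.64 FPKM, with ranges that overlapped between neighbours. Nfkb1, Ikbkb, Relb and Nfkbie were lowest, at 2.10 to 1.24 FPKM on average, and also overlapped from each to the next. In control libraries Rela led with 32.3 ± 1.88 FPKM, and Nfkb1 and Nfkb2 followed with 12.6 ± 0.747 and 12.0 ± 0.406 FPKM and overlapping ranges. Ikbkb at 9.63 ± 0.241 and Nfkbib at 9.42 ± 1.62 FPKM overlapped as well, as did Nfkbia at 5.65 ± 0.621 and Nfkbie at 4.92 ± 0.745 FPKM. Relb, Nfkbiz and Tnfaip3 closed the order at 3.50 ± 0.286, 2.12 ± 0.247 and 0.431 ± 0.106 FPKM, each clear of the next.

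Ratios within a library do not depend on the scaling between libraries, and are given as a description with no test. The FPKM of Nfkbia was 7.79, 7.13 and 4.72 times that of Rela in lactate libraries 1, 2 and 3, and 0.168, 0.167 and 0.190 times in control libraries 1, 2 and 3. Inhibitor transcript thus exceeded Rela transcript in every lactate library and was below it in every control library. The summed FPKM of Nfkbia, Nfkbib and Nfkbie over that of Rela, Relb, Nfkb1 and Nfkb2 was 4.78, 4.79 and 2.79 in lactate libraries and 0.291, 0.343 and 0.356 in control libraries. Nfkbia made up 86.7 to 91.0% of the summed FPKM of the 3 inhibitors in lactate libraries and 26.2 to 30.2% in control libraries, where Nfkbib had the largest share.

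Tnfaip3 over Ikbkb, the off-switch over the kinase, was 4.95, 7.37 and 1.63 in lactate libraries and 0.0383, 0.0383 and 0.0577 in control libraries, the widest gap of the 7 ratios computed and the most variable among lactate libraries. Nfkb2 over Nfkb1 was 2.30, 2.22 and 2.82 in lactate libraries and 0.990, 0.971 and 0.887 in control libraries, so the precursors were near parity in control cells only. Nfkbib over Rela averaged −0.59 ± 0.18 in lactate and −1.79 ± 0.18 in control libraries on the log2 scale (SD, n = 3). Relb over Rela (−3.03 ± 0.25 in lactate and −3.21 ± 0.20 in control libraries) overlapped between groups, and Nfkbie over Rela (−3.12 ± 0.26 in lactate and −2.72 ± 0.15 in control libraries) did not overlap, with −2.97 in the highest lactate and −2.88 in the lowest control library. Nfkbiz over Nfkbia was 0.0890 to 0.0971 in lactate and 0.305 to 0.428 in control libraries.

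**Figure D3:**
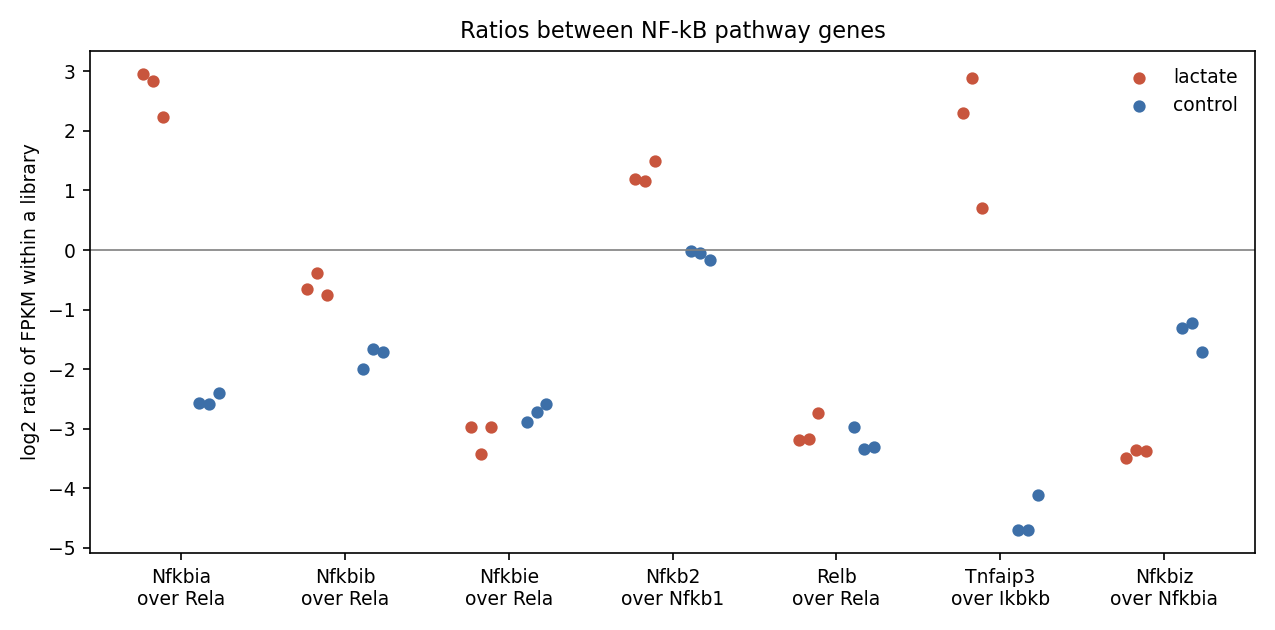
Log2 ratio of the FPKM of 2 genes within each of 3 lactate (red) and 3 control (blue) libraries, with a grey line at equal FPKM. Nfkbia over Rela and Tnfaip3 over Ikbkb lie above the line in every lactate library and below it in every control library, while Relb over Rela overlaps.

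By profile over the 6 libraries, the genes most like Tnfaip3 among 11346 candidates were 3 unannotated transcribed loci and Nfkbia, which lay at a Euclidean distance of 0.58 log2 units. Nfkbia was thus the closest of the candidates that carry a gene symbol. Genes with a low mean CPM and those with provisional symbols, such as LOC or RGD with digits, were not candidates. The genes most like Ikbkb were Kif13a (0.18 log2 units), Trmt44 (0.22), Mtor (0.22) and Galnt3 (0.24). This measure mostly reflects the size of the difference between the groups.

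Around these 10 genes, 111 further genes of the pathway were listed by role, of which 86 were tested. Of these 33 were called higher and 24 lower, or 66.3% called, near the 66% of all genes. With library totals the split was 19 higher and 47 lower, against 1722 higher and 8492 lower of all 13747 tested genes. The list of target genes and that of other subunits and IkB proteins had medians far above the −0.10 of all tested genes, and the signalling lists did not.

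Among the other subunits and IkB proteins, 3 of 5 were higher and 1 lower, with a median log2 fold change of 1.98. Rel, the c-Rel subunit best known from lymphocytes, had 6.49, 9.74 and 6.05 CPM in lactate libraries and 1.62, 2.15 and 1.87 CPM in control libraries, and so rose by 1.98 ± 0.26 (SE; edgeR adjusted p = 0.00018) where the 4 other subunits did not rise. Bcl3, a nuclear IkB protein that binds p50 and p52 dimers, rose by 2.45 ± 0.43 from few counts (114 in lactate and 43 in control libraries). Nfkbil1 rose by 1.24 ± 0.18, a call lost in 3 of 17 alternatives, among them library totals (0.40). Nkrf, a repressor of NF-kB target promoters, fell by 1.28 ± 0.25.

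The IKK complex and the kinases upstream of it had 3 higher and 5 lower of 12, with a median of −0.10. Of the partners of Ikbkb, Ikbkg, which encodes the scaffold NEMO, fell by 0.89 ± 0.18 (SE; edgeR adjusted p = 0.0021). Chuk, the IKK-alpha subunit, was not called at 0.38 ± 0.18 (edgeR adjusted p = 0.094), and its sign turned with library totals (−0.46). It was called higher with DESeq2 (0.41), with the length trend removed (0.80) and without lactate replicate 2 (0.54). Ripk1, the scaffold kinase below the TNF receptor, fell most, with 3.92 ± 0.437 CPM in lactate and 32.6 ± 2.38 CPM in control libraries (SD, n = 3), a log2 fold change of −3.06 ± 0.15. Map3k7, which encodes the IKK-activating kinase TAK1, fell by 1.23 ± 0.16, and Irak4, the first kinase below interleukin-1 and Toll-like receptors, by 1.79 ± 0.24. Irak2 rose by 1.65 ± 0.27, a call lost in 2 of 17 alternatives, among them log2(FPKM + 1) at 0.42. Map3k14, the kinase NIK of the non-canonical pathway, was higher by 0.88 ± 0.17. Its call was lost in 3 of 17 alternatives, among them library totals (0.027).

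Among adaptors and ubiquitin ligases, 5 were higher, 7 lower and 11 not called of 23 (median −0.15). The related ligases of the TNF receptor complex moved apart. Birc2, which encodes cIAP1, rose to 80.1 ± 10.1 CPM in lactate libraries, against 12.8 ± 0.816 CPM in control libraries (SD, n = 3). Birc3, which encodes cIAP2, fell by 1.69 ± 0.49 (SE; edgeR adjusted p = 0.014). The fall of Birc3 was 2.38 without lactate replicate 3 and 1.30 without lactate replicate 1. Traf2, the recruiting adaptor of both ligases, rose by 1.55 ± 0.15, and Tradd and Traf5 fell by 1.16 and 2.96. Fbxw11, one of the ligase subunits that recognise phosphorylated IkB-alpha, rose by 1.03 ± 0.11. Its call was lost in 3 of 17 alternatives, among them library totals (0.18).

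Negative regulators and deubiquitinases had 4 higher, 4 lower and 6 not called of 14 tested (median −0.12). Zc3h12a, the RNase regnase-1 that degrades cytokine mRNA, rose by 2.79 ± 0.20, Tollip, an adaptor that dampens Toll-like and interleukin-1 receptor signalling, by 2.85 ± 0.12, and N4bp1 by 1.57 ± 0.10. Against the rise of Tnfaip3, its binding partner Tnip1 fell to 21.3 ± 5.68 CPM in lactate libraries, against 49.1 ± 3.53 CPM in control libraries (SD, n = 3), and Otulin, which removes linear ubiquitin chains, fell by 1.15 ± 0.17. Irak3, an inactive kinase that restrains Toll-like receptor signalling, fell by 1.13 ± 0.21. Cyld, another deubiquitinase of the pathway, missed the call with a log2 fold change of −0.25 (adjusted p = 0.28 by edgeR), but was called at −1.09 with library totals and at −0.48 without lactate replicate 3.

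Of 12 receptors tested, 4 were higher and 5 lower (median −0.38). All 3 Toll-like receptor genes listed were called lower. Tlr4 fell to 1.24 ± 0.580 CPM in lactate libraries, against 10.4 ± 0.735 CPM in control libraries (SD, n = 3), and Tlr3 fell by 3.51 ± 0.31. Tlr2 had 2 lactate counts, both in library 3, and 142 control counts. It passed the filter on low counts through control libraries only, so it could not have been called higher. Il1r1, the signalling receptor for interleukin-1, fell by 1.21 ± 0.33, while its co-receptor Il1rap rose by 1.91 ± 0.12. Tnfrsf1a, the main TNF receptor, was not called at −0.10 ± 0.09 (edgeR adjusted p = 0.37), but was −0.96 and called with library totals. Tnfrsf1b, the other TNF receptor, rose by 1.26 ± 0.25 and Ager, the receptor RAGE, by 1.83 ± 0.28. The call of Tnfrsf1b was lost in 3 of 17 alternatives, among them library totals (0.39). The lymphotoxin receptor Ltbr fell by 0.67 ± 0.10. Cd14, a co-receptor of Tlr4 that also marks macrophages, fell by 1.72 ± 0.19, while the macrophage marker Cd68 rose by 1.48 ± 0.40. The call of Cd68 was lost in 3 of 17 alternatives, among them library totals (0.64). The part of such cells in these values was not tested.

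Transcripts of the inflammatory ligands were scarce. Tnf had 9 lactate and 0 control counts over 3 libraries each, Il1a 0 lactate and 3 control counts, Lta 2 and 4, and Ltb 7 and 2, in the same order, all under the filter, and Il1b was not analysed here. Of the 2 ligands tested, Tnfsf12 was called higher by 0.45 ± 0.15 (edgeR adjusted p = 0.026), but was −0.42 and called lower with library totals. Its call was lost in 5 further alternatives, at 0.30 with upper-quartile factors and when lactate replicate 1 or 2 or control replicate 1 or 3 was left out (0.36 to 0.45).

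Known NF-kB target genes were higher in 13 of 18 tested, lower in 2 and not called in 3. Of all tested genes, 31.4% were higher and 34.6% lower. The median of the target genes was 1.94 on the log2 scale. By library totals it was 1.05, with 9 higher and 3 lower, against 1722 higher and 8492 lower of all 13747 tested genes. Many of the target genes also answer to other stress-responsive factors. Gadd45b, an early stress gene, had the largest rise, to 1529 ± 312 CPM in lactate libraries, against 47.2 ± 4.91 CPM in control libraries (SD, n = 3). The survival gene Bcl2l1 rose by 2.90 ± 0.10, Irf1, a transcription factor of the interferon response, by 2.97 ± 0.16, and Ier3 by 2.15 ± 0.09. The cytokine Lif rose by 3.22 ± 0.34 and the syndecan Sdc4 by 1.87 ± 0.23. Of the chemokines, Cxcl1 rose by 2.60 ± 0.17. Ccl7 rose by 4.13 ± 0.52 and Cxcl10 by 2.10 ± 0.42, both from few control counts (65 for Ccl7 and 86 for Cxcl10). Ccl7 was spread among lactate libraries, at 8.98, 11.7 and 3.04 CPM in libraries 1, 2 and 3. Ccl2 was not called at 0.60 ± 0.39 (edgeR adjusted p = 0.20), with 259 lactate and 352 control counts. The adhesion gene Icam1 rose by 0.96 ± 0.13, a call lost in 3 of 17 alternatives, among them library totals (0.092).

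Ptgs2, which encodes the inducible cyclooxygenase, went against the list: it fell by 1.14 ± 0.20, with 88.5 ± 25.8 CPM in lactate and 195 ± 5.28 CPM in control libraries (SD, n = 3; edgeR adjusted p = 0.0010). Cx3cl1 was the other target that fell, with 0 lactate and 48 control counts, at least 7.97-fold lower against 3 counts over the lactate group. It passed the filter on low counts through control libraries only, so it could not have been called higher. Some listed targets had few counts in either group, with 6 lactate and 10 control counts for Il6, 10 and 10 for Ccl20, 2 and 0 for Nos2 and 0 and 9 for Vcam1. The motif of GGGA and TTCC with 2 bases between them occurred in 3 of the 13 target gene windows used here and in 1.3% of all windows. The looser kB consensus occurred in 5 of the 13 and in 7.51% of all windows. It also occurred in 2 of 5 windows of nucleus pulposus and notochord markers.

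**Figure D4:**
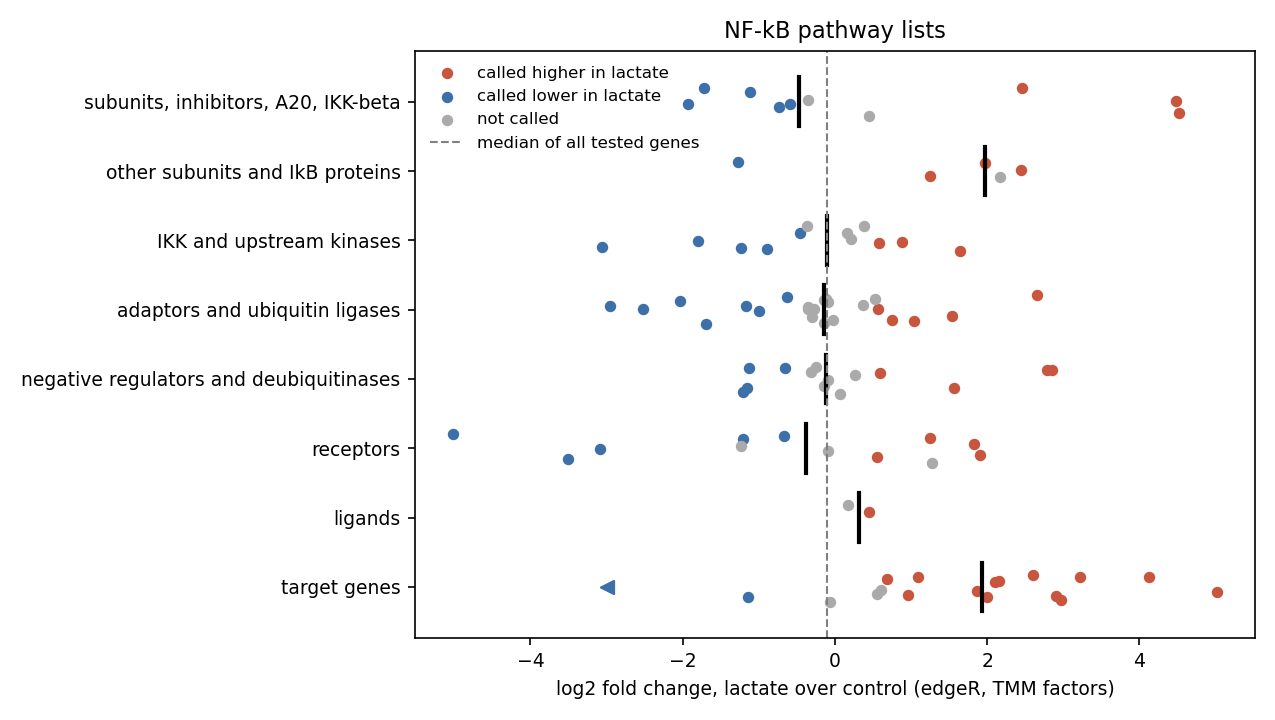
Log2 fold change, lactate over control (edgeR with TMM factors), of each tested gene by list, coloured by call, with a black bar at the list median and a dashed line at the median of all tested genes (−0.10). Cx3cl1, with 0 lactate counts, is drawn as an arrowhead at its bound, and the target genes (median 1.94) and the other subunits and IkB proteins (median 1.98) lie to the right of the dashed line.

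In the authors' deposited table of their own comparison, 6359 of 17273 genes were selected. They included 6 of the 10 genes: Nfkbia, Nfkbiz, Tnfaip3, Ikbkb, Nfkb1 and Nfkbie. The authors' log2 fold changes were 4.44 for Nfkbia, 4.49 for Tnfaip3 and −1.97 for Ikbkb. Rela (−0.77) was not selected, although its adjusted p in the authors' comparison was 2.2e-05. Relb (−0.62), called here, was not selected either, with an adjusted p of 0.12 in the authors' comparison. Nfkb2 and Nfkbib, not called here, were also not selected.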

How the data were processed

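Per the labels' protocols, RNA of cultured rat nucleus pulposus cells was made into mRNA libraries. The authors deposited raw read counts per gene and FPKM for each library, with their own log2 fold changes and p-values. How reads were aligned and counted, and whether by strand, is not stated there. GRCm38 and mm10, which are builds of the mouse genome, are the only ones listed in the submitters' processing notes, although the tables carry rat names, and the genome behind the counts is not settled. All 10 symbols matched RefSeq of GRCr8, used for names, overlaps and promoter sequences. Counts were tested with edgeR 4.0.16 in R 4.3.3 (quasi-likelihood test, TMM factors, filterByExpr, group as the only term, Benjamini-Hochberg adjustment over all tested genes). SE is the fold change over the root of the F statistic. Alternatives were factors by RLE or the upper quartile, unscaled library totals, no filter or at least 10 counts in every library of a group, DESeq2 1.42.0, limma-voom and limma-trend (limma 3.58.1) on log2(FPKM + 1) and log2(FPKM + 0.1), removal of a loess trend on length (taken from counts over FPKM), a replicate block, and each library left out. The tests were tested on simulated data with few changed genes. Unlike these data, the simulation held neither a shift in library make-up nor a trend on length. In the low-count floor, 3 counts cover counting error only.

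All 10 genes were named, and from each list up to 4 called genes with the smallest p and genes at 0 in one group and over 30 counts in the other. Chuk, Ikbkg, Map3k14, Tradd, Birc3, Tnip1, Irak3, Cyld, Tnfrsf1a, Tnfrsf1b, Il1r1, Tlr2, Ager, Ccl2 and the other chemokines, Lif, Icam1, Sdc4, Ptgs2, Cd14 and the low-count ligands, targets and markers were named after their values were seen. Members, lists, motif and alternatives were chosen with earlier results of these data known.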

Additional observations from a re-analysis of the deposited data

How the results depend on the processing

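Nfkbia, Tnfaip3, Nfkbiz, Rela, Nfkb1, Nfkbie and Ikbkb kept direction and call in all 17 alternatives. Relb lost its call with RLE factors (−0.55), no filter (−0.62), DESeq2 (−0.55), the length trend removed (−0.54) and the replicate block (−0.60), and ranged from −0.71 to −0.49 with a library left out. Nfkb2 was called with upper-quartile factors (−0.51), library totals (−1.19), log2(FPKM + 1) (−1.09) and log2(FPKM + 0.1) (−1.23), and ranged from −0.52 to −0.20 with a library left out. Nfkbib was called with RLE factors (0.50), at least 10 counts (0.46), DESeq2 (0.49), limma-voom (0.45) and the replicate block (0.46), ranged from 0.31 to 0.56 with a library left out, and turned to −0.41 with library totals and −0.36 and −0.40 on log2(FPKM + 1) and log2(FPKM + 0.1). The cause was not tested.

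With library totals, log2(FPKM + 1) and log2(FPKM + 0.1), Tnfsf12 was −0.42, −0.39 and −0.43 and Chuk −0.46, −0.46 and −0.52. Tnfrsf1a was 0.067 with the length trend removed.

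Over all genes, 8026 to 10540 were called, of the 10 genes 7 to 10, and of the pathway lists 51 to 66. The share of all calls that were higher was 47.6% with TMM, 41.0% with upper-quartile factors, 16.9% with library totals and 52.9% once the length trend was removed. Same-numbered libraries correlated at 0.01, 0.04 and 0.08 in their deviations from the group means, and the other pairs at −0.11 to 0.071. Deviations within a group of 3 sum to 0, so these values depend on each other, and they were not tested. Whether the replicate numbers of the labels pair the libraries is not settled. With the replicate block, 8814 genes and 8 of the 10 were called. Depth limits Tnfaip3 most, at 31 to 49 control counts.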
